A study of Mus musculus with 48 samples.

Results

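Bone marrow-derived macrophages that lack LynA were compared here with macrophages that lack LynB. Lyn is a Src-family tyrosine kinase, and LynA and LynB are its splice isoforms. The 12 LynAKO libraries and the 12 LynBKO libraries were taken by genotype label from 48 libraries of the series, and every gene that passed a filter on low counts was tested. The whole study held 16 mice of 4 genotypes (LynAKO, LynBKO, a total knockout named LynKO, and WT), with 4 mice (2 male and 2 female) per genotype, and its title names macrophage activation through Toll-like receptors and macrophage proliferation as the questions. Marrow of each mouse was cultured for 7 days with macrophage colony-stimulating factor (M-CSF, from CMG14-12 cell-conditioned medium) and rested overnight without it. Each culture then received for 2 h no ligand (NT), 2 ng/mL LPS of Salmonella Minnesota R595, which Toll-like receptor 4 senses, or 20 ng/mL R848 (resiquimod), a small molecule sensed by Toll-like receptor 7 of the mouse. PolyA RNA was sequenced as pairs of reads. The sources used here do not give the strain, the age or how the alleles were made.

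Lyn phosphorylates the signalling tails of both activating and inhibitory receptors in myeloid cells, so it can start a signal and also hold it back. LynA and LynB differ by an insert in the unique region near the amino terminus, which LynA carries and LynB lacks. A tyrosine in the LynA insert marks this isoform for degradation through the ubiquitin ligase Cbl after strong activation, while LynB persists. Counts were deposited per gene, so reads with and without the insert could not be told apart.

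Library totals were 15106169 to 21781572 counts in LynAKO and 15174918 to 23321447 in LynBKO. The mouse of a library was read from the genotype and number in its title. In LynBKO this goes against other labels. NT 2 is labelled female and NT 3 male, opposite to the LPS and R848 libraries of the same numbers. The Xist and Y-linked levels of those libraries match their sex labels. As titled, LynBKO numbers 2 and 3 therefore each join libraries of both sexes and are not 1 mouse each. Means of mice follow the titles throughout. LynBKO NT 4, labelled female, held Xist together with 162 CPM of Y-linked transcripts, against at most 0.127 CPM in the other female libraries of these 24. It was the 1 library of 24 whose sex transcripts did not match its label. Among the LynKO libraries, which enter the fits of 4 genotypes, NT 4 is also labelled female and held 89.6 CPM of Y-linked transcripts. Deviations of each library from its group mean were correlated between NT and the LPS and R848 libraries of the same number. The correlations were 0.13 to 0.38 in LynAKO, and -0.09 to -0.01 in LynBKO numbers 2, 3 and 4. With LynBKO NT 2 and NT 3 exchanged, theirs were 0.05 to 0.10. The count of genes called over all treatments is therefore given also without LynBKO NT 4 and with the mice of LynBKO NT 2 and NT 3 exchanged, and so are the medians of the gene lists that the results turn on.

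The macrophage label held in both genotypes. Mature macrophage markers summed to 38904 to 45955 CPM (counts scaled to library size by TMM) in LynAKO libraries and 36528 to 44475 CPM in LynBKO libraries. Csf1r, the M-CSF receptor, had a mean of 4168 CPM in LynAKO and 4218 CPM in LynBKO, a log2 difference of -0.02 ± 0.04 (SE). Under 1 CPM in all 24 libraries were 10 of 13 B cell markers (Cd79a among them) and 11 of 13 T and NK cell markers (Cd3e). So were 8 of 10 markers of mast cells, basophils and eosinophils (Cpa3) and 8 of 11 erythroid and megakaryocyte markers (Hba-a1). Other members were detected. The T and NK list summed to 94.3 to 213 CPM in LynAKO and 82.8 to 165 CPM in LynBKO. The B cell list summed to 11.8 to 23.9 CPM and 10.0 to 24.9 CPM, and the erythroid and megakaryocyte list to 9.04 to 53.2 CPM and 6.43 to 44.4 CPM.

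The gene Lyn spans 3678115 to 3813122 of chromosome 4 in GRCm38 (plus strand, ENSMUSG00000042228), and its total level overlapped between the isoform knockouts. Without ligand, Lyn was at 108, 135, 127 and 112 CPM in LynAKO libraries, against 129, 124, 137 and 123 CPM in LynBKO libraries. With LPS, Lyn was at 204, 252, 203 and 202.1 CPM in LynAKO, against 245, 224, 199 and 194 CPM in LynBKO. With R848, Lyn was at 223, 256, 243 and 246 CPM in LynAKO, against 269.6, 262, 220.0 and 251 CPM in LynBKO. The genotypes overlapped under every treatment. Over all treatments the log2 difference of Lyn was -0.05 ± 0.06 (SE), with a 95% interval of -0.16 to 0.07 and an adjusted p of 0.833 by limma. The means of mice were 193 ± 15.3 CPM in LynAKO and 198 ± 13.4 CPM in LynBKO, while LynKO mice had 87.3 ± 6.24 CPM and WT mice 295 ± 5.41 CPM (SD, n = 4 each). This total per gene checks no isoform label, since a cell that makes either isoform alone adds reads to the same gene.

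Few genes differed between the isoform knockouts. Over all treatments limma, with treatment as a covariate and the libraries of a mouse as a correlated block, called 6 of 13986 genes (0.0429%) at an adjusted p under 0.05. Pltp and Fabp4, both of lipid handling, were higher in LynAKO (0.0143%), and Itgb7, Atp2a3, Trem1 and Ltbp2 were lower (0.0286%). At an unadjusted p under 0.05 limma gave 1171 genes (8.37%), 496 higher (3.55%) and 675 lower (4.83%) in LynAKO. On counts summed per mouse, 4 mice against 4, edgeR called 0 genes, with 824 (5.89%) at an unadjusted p under 0.05 (2.62% higher and 3.27% lower in LynAKO), and DESeq2 called 13. None of the 6 genes therefore holds by both limma and edgeR on sums, where their adjusted p values were 0.678 to 0.756. DESeq2 on the sums called 5 of the 6, all but Fabp4. Without LynBKO NT 4 limma called 2 genes, Itgb7 and Pltp, and with the mice of LynBKO NT 2 and NT 3 exchanged it called 9, the same 6 among them. The count was 3 without LynAKO mouse 1, 21 without LynAKO mouse 2, 20 without LynAKO mouse 3, 1 without LynBKO mouse 2 and 2 without LynBKO mouse 4. Pltp was called in each of these.

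**Figure D1:**
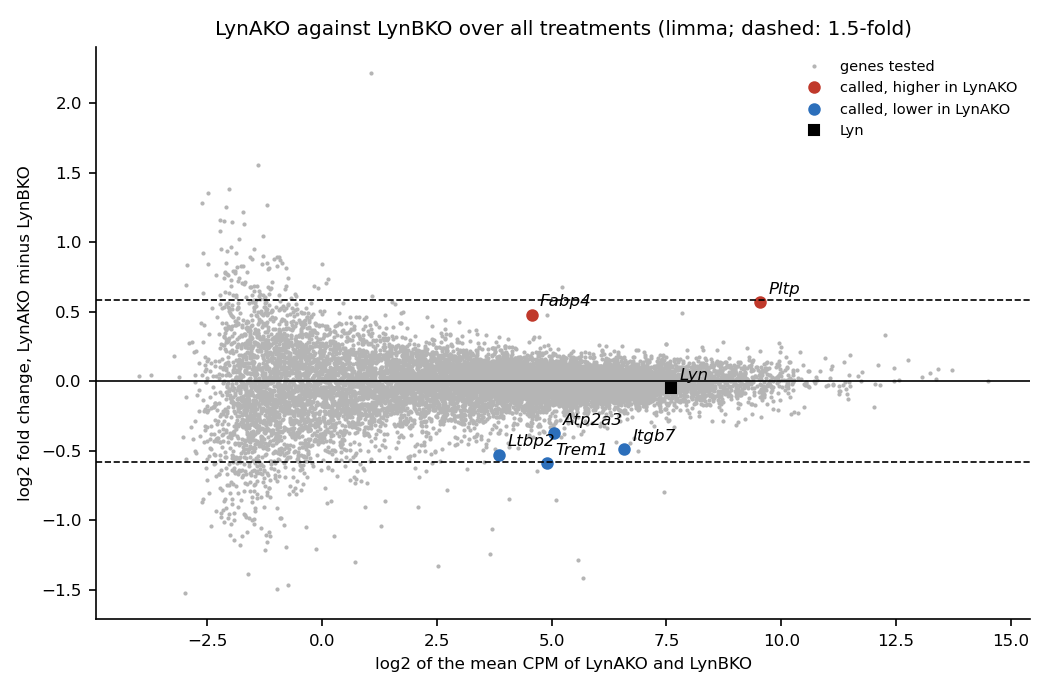
Log2 fold change of every gene tested (LynAKO minus LynBKO, limma over all treatments, vertical axis) against the log2 of its mean CPM (horizontal axis), with dashed lines at 1.5-fold. The 2 genes called higher in LynAKO (red), the 4 called lower (blue) and Lyn (black square, at -0.05) are named; at higher levels most genes lie close to 0.

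By limma, the size of difference that these libraries leave room for was small for most genes. The median log2 difference over all genes was -0.01, the 5th percentile was -0.34 and the 95th percentile 0.25. The 95% interval of the limma estimate stayed within 1.5-fold either way for 10685 genes (76.4%) and within 2-fold for 12620 genes (90.2%). Among the 9360 genes with a mean of at least 5 CPM, 98.5% had an interval within 1.5-fold and 99.9% within 2-fold. Estimates beyond 2-fold were seen for 47 genes. These intervals rest on a within-mouse correlation shared by all genes (0.205) and on mice read from titles, which are in doubt in LynBKO. No such count of intervals was made on sums per mouse, where mice are the only replicates, so the precision may be overstated.

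Pltp gave the smallest p. It encodes the phospholipid transfer protein, which moves lipids between lipoproteins and is induced by the sterol receptor LXR (ENSMUSG00000017754, GRCm38 chromosome 2, 164839518 to 164857711, minus strand). Without ligand, Pltp was at 1168, 782, 767 and 1028 CPM in LynAKO libraries, against 646, 645, 624 and 582 CPM in LynBKO libraries. With LPS, Pltp was at 1144, 724, 770.4 and 1088 CPM in LynAKO, against 632, 596, 622 and 611 CPM in LynBKO. With R848, Pltp was at 1025, 658, 674 and 988 CPM in LynAKO, against 548, 516, 552 and 584 CPM in LynBKO. Under each treatment every LynAKO library lay above every LynBKO library. LynAKO mice 1 and 4, a male and a female, were the high pair at 1112 and 1035 CPM on average, and mice 2 and 3 stood at 722 and 737 CPM. The 4 LynBKO mice lay between 586 and 609 CPM. Pltp was 0.57 ± 0.08 higher on the log2 scale in LynAKO (SE, adjusted p = 0.00193 by limma), and 0.60 ± 0.12 by edgeR on the sums (adjusted p = 0.756).

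Fabp4, a fatty acid binding protein of macrophages and adipocytes, was the other gene called higher in LynAKO (ENSMUSG00000062515, GRCm38 chromosome 3, 10204088 to 10208576, minus strand). Without ligand, Fabp4 was at 22.5, 14.3, 17.8 and 22.3 CPM in LynAKO, against 12.2, 14.4, 12.2 and 12.0 CPM in LynBKO. With LPS, Fabp4 was at 48.2, 33.4, 42.2 and 40.3 CPM in LynAKO, against 33.7, 29.1, 28.6 and 27.4 CPM in LynBKO. With R848, Fabp4 was at 25.6, 18.0, 20.8 and 25.4 CPM in LynAKO, against 14.7, 15.98, 16.2 and 20.9 CPM in LynBKO. LynAKO library 2 lay below the highest LynBKO library under each treatment, and library 3 did so with R848, but the means of the mice did not overlap. The log2 difference of Fabp4 was 0.48 ± 0.09 (SE, adjusted p = 0.026 by limma). Its neighbour Fabp5, which encodes a related fatty acid binding protein, had a difference of 0.27 ± 0.06 (adjusted p = 0.132). Of 9 genes tested within 500 kb of Fabp4 on chromosome 3, itself included, 3 had an unadjusted p under 0.05 (8.37% of all genes). They were Fabp4 and Fabp5, both higher in LynAKO, and Pag1 at -0.21 ± 0.10. The window was drawn around a called gene, so its count tests nothing.

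Itgb7, the beta 7 integrin subunit that pairs with alpha 4 or alpha E, was lower in LynAKO (ENSMUSG00000001281, GRCm38 chromosome 15, 102215995 to 102231944, minus strand). Without ligand, Itgb7 was at 64.1, 89.5, 94.3 and 84.1 CPM in LynAKO, against 108, 118, 141 and 117 CPM in LynBKO. With LPS, Itgb7 was at 60.3, 83.6, 91.8 and 86.8 CPM in LynAKO, against 103, 117, 113 and 93.8 CPM in LynBKO. With R848, Itgb7 was at 59.8, 82.1, 84.4 and 83.5 CPM in LynAKO, against 102, 127, 102 and 96.9 CPM in LynBKO. The libraries of the 2 genotypes did not overlap under any treatment, and LynAKO mouse 1 was the lowest each time. Itgb7 fell by 0.49 ± 0.08 on the log2 scale (SE, adjusted p = 0.00601 by limma).

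Trem1, an activating receptor that signals through the adaptor Tyrobp (DAP12) and amplifies Toll-like receptor responses, was also lower in LynAKO (ENSMUSG00000042265, GRCm38 chromosome 17, 48232768 to 48246924, plus strand). Without ligand, Trem1 was at 7.14, 13.6, 13.1 and 11.6 CPM in LynAKO, against 16.8, 16.7, 22.1 and 19.3 CPM in LynBKO. With LPS, Trem1 was at 11.8, 21.4, 18.6 and 20.5 CPM in LynAKO, against 22.6, 28.6, 19.04 and 25.0 CPM in LynBKO. With R848, Trem1 was at 33.6, 44.7, 47.5 and 46.1 CPM in LynAKO, against 67.6, 72.6, 58.0 and 56.0 CPM in LynBKO. The groups were apart without ligand and with R848 and overlapped with LPS, where the third LynBKO library was low. Trem1 fell by 0.59 ± 0.11 on the log2 scale (SE, adjusted p = 0.026 by limma). LynAKO mouse 1 was the lowest under each treatment, and without it the difference was -0.43 with an adjusted p of 0.254, so the call was lost.

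Atp2a3 encodes SERCA3, a pump that returns calcium to the endoplasmic reticulum (ENSMUSG00000020788, GRCm38 chromosome 11, 72961169 to 72993044, plus strand). Without ligand, Atp2a3 was at 28.4, 34.9, 34.3 and 30.3 CPM in LynAKO, against 42.2, 43.6, 37.4 and 40.5 CPM in LynBKO. With LPS, Atp2a3 was at 24.3, 32.0, 29.4 and 29.9 CPM in LynAKO, against 31.1, 35.1, 41.4 and 39.6 CPM in LynBKO. With R848, Atp2a3 was at 24.1, 27.2, 27.6 and 25.4 CPM in LynAKO, against 30.5, 31.8, 41.4 and 37.0 CPM in LynBKO. The groups overlapped with LPS, by LynAKO library 2, and were apart otherwise. Atp2a3 fell by 0.37 ± 0.07 on the log2 scale (SE, adjusted p = 0.0252 by limma).

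Ltbp2, a protein of extracellular matrix microfibrils, had the lowest CPM of the genes called (ENSMUSG00000002020, GRCm38 chromosome 12, 84783212 to 84876532, minus strand). Without ligand, Ltbp2 was at 8.94, 13.01, 15.2 and 9.97 CPM in LynAKO, against 18.5, 20.6, 17.0 and 16.2 CPM in LynBKO. With LPS, Ltbp2 was at 11.4, 12.0, 11.7 and 9.88 CPM in LynAKO, against 13.4, 13.1, 18.6 and 19.3 CPM in LynBKO. With R848, Ltbp2 was at 11.4, 14.3, 14.9 and 11.2 CPM in LynAKO, against 14.7, 16.9, 19.02 and 17.5 CPM in LynBKO. The groups touched with R848, where LynAKO library 3 stood just above LynBKO library 1. Ltbp2 fell by 0.53 ± 0.10 on the log2 scale (SE, adjusted p = 0.0431 by limma).

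The means of the 4 LynAKO and 4 LynBKO mice did not overlap for any of the 6 genes, which was the case for 443 of all genes tested (3.17%), with 1.87% higher and 1.3% lower in LynAKO. Without LynAKO mouse 1 limma no longer called Fabp4, Atp2a3 and Ltbp2, each at an adjusted p of 0.319, nor Trem1. Without LynBKO mouse 2 it called neither these 4 nor Itgb7 (adjusted p = 0.102). Without LynBKO NT 4 the adjusted p of Fabp4, Trem1 and Ltbp2 was 0.0648 and that of Atp2a3 was 0.0637. With mice as titled and treatment as the only covariate, the next genes by p did not pass the threshold. They were Ccnb1 (cyclin B1, which drives entry into mitosis) at -0.58 ± 0.12, Emilin2 (an extracellular matrix glycoprotein) at -0.32 ± 0.06, Fcrls (a scavenger receptor of the Fc receptor-like family) at 0.68 ± 0.14 and Adgb (androglobin) at -0.65 ± 0.14, with adjusted p values of 0.0521, 0.0522, 0.077 and 0.116 by limma. Ccnb1 had mouse means of 7.05, 8.73, 10.9 and 10.98 CPM in LynAKO and 10.3, 16.1, 15.5 and 13.3 CPM in LynBKO. Fcrls had mouse means of 57.2, 37.0, 34.4 and 57.0 CPM in LynAKO and 28.8, 24.9, 30.5 and 31.3 CPM in LynBKO. In Fcrls, as in Pltp, LynAKO mice 1 and 4 were the high pair, and in Ccnb1 the genotypes overlapped. With the mice of LynBKO NT 2 and NT 3 exchanged limma also called Ccnb1, Emilin2 and Fcrls, as it did with sex as covariate. With the exchange and LynBKO NT 4 left out it called none of them.

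**Figure D2:**
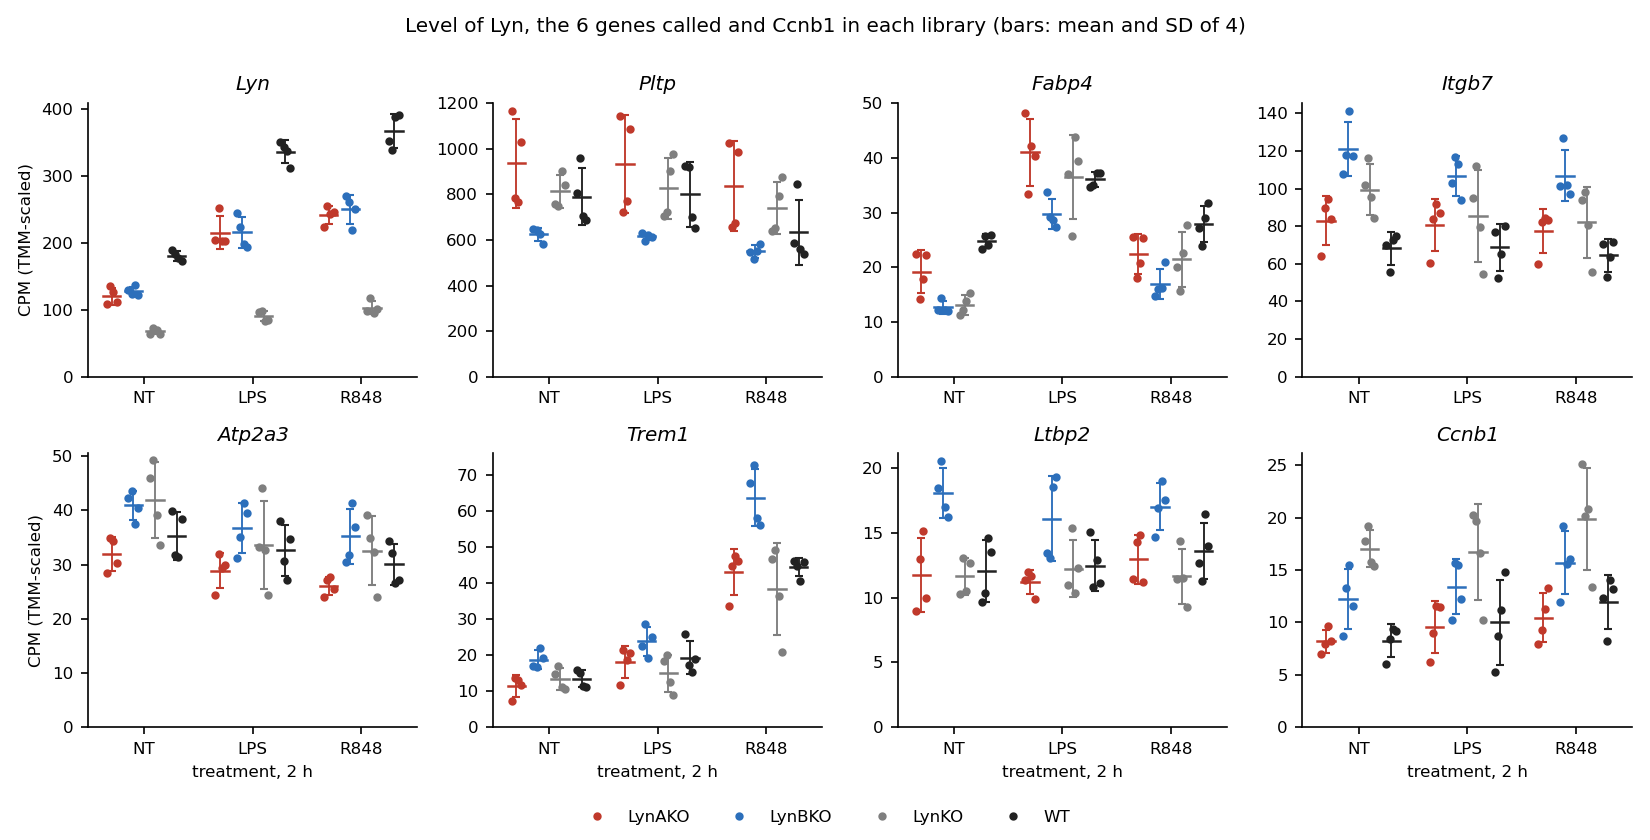
CPM of Lyn, the 6 genes called and Ccnb1 in each library (points), by treatment on the horizontal axis and genotype by colour, with the mean and SD of 4 libraries as bars. Lyn overlapped between LynAKO (red) and LynBKO (blue) under every treatment, while Pltp and Itgb7 did not overlap under any; LynKO (grey) and WT (black) are shown for their level.

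The 6 genes are given next relative to WT, whose libraries both comparisons share. For Fabp4 and Itgb7 both knockouts lay on the same side of WT, with LynBKO farther from it, and for the other 4 genes they lay on opposite sides. In a limma fit of all 48 libraries Fabp4 had -0.15 ± 0.12 in LynAKO minus WT (adjusted p = 0.993) and -0.63 ± 0.12 in LynBKO minus WT (adjusted p = 0.00163). Itgb7 had 0.26 ± 0.10 in LynAKO minus WT (adjusted p = 0.547) and 0.75 ± 0.10 in LynBKO minus WT (adjusted p = 2.62e-06). For Ltbp2 the values were -0.07 ± 0.10 (adjusted p = 0.997) in LynAKO and 0.45 ± 0.10 (adjusted p = 0.0116) in LynBKO. Pltp stood at 0.28 ± 0.09 (adjusted p = 0.289) in LynAKO and -0.30 ± 0.09 (adjusted p = 0.0962) in LynBKO. Trem1 stood at -0.12 ± 0.13 (adjusted p = 0.997) in LynAKO and 0.47 ± 0.13 (adjusted p = 0.0591) in LynBKO, and Atp2a3 at -0.17 ± 0.09 (adjusted p = 0.874) and 0.21 ± 0.08 (adjusted p = 0.328). In that fit 36 genes (0.257%) were called for LynAKO against WT, 138 (0.987%) for LynBKO against WT and 3 (0.0215%) for LynAKO against LynBKO. Against LynKO the counts were 1299 (9.29%) for LynAKO and 1594 (11.4%) for LynBKO.

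Listed LXR targets and lipid handling genes tended to stand higher in LynAKO, while cholesterol synthesis genes tended to stand lower. Of 19 tested members of a list of LXR targets and lipid handling genes, 15 had a higher estimate in LynAKO, with a median of 0.13 on the log2 scale against -0.01 over all genes. Pltp and Fabp4 were called, and 7 members had an unadjusted p under 0.05 in the higher direction and 1 in the lower, where 3.55% and 4.83% of all genes did so. Apoe, the apolipoprotein that carries cholesterol out of macrophages, had 0.33 ± 0.09 (adjusted p = 0.337 by limma), while Fasn, the fatty acid synthase, had -0.27 ± 0.08 (adjusted p = 0.419). The cholesterol exporter Abca1, a central LXR target, stood at -0.02 ± 0.11. By mouse the mean log2 level of the list was 6.59, 6.37, 6.39 and 6.40 in LynAKO and 6.26, 6.25, 6.31 and 6.30 in LynBKO, so the genotypes did not overlap and LynAKO mouse 1 was the highest. Without LynAKO mouse 1 the median of the list was 0.09, and it was 0.13 without LynBKO NT 4 and 0.13 with NT 2 and NT 3 exchanged. Since Pltp and Fabp4 were known to stand out when the list was kept, its count describes these libraries only. Of 22 tested genes of cholesterol synthesis 20 had a lower estimate (52.5% of all genes), with a median of -0.13 and none called. At an unadjusted p under 0.05, 3 were lower and 0 higher. When a mouse was left out this median lay between -0.19 and -0.02.

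Mature macrophage markers and complement genes showed small differences, none called. Of 23 macrophage markers 17 had a higher estimate in LynAKO, with a median of 0.06. At an unadjusted p under 0.05, 7 were higher and 1 lower, where 3.55% and 4.83% of all genes were. Without LynAKO mouse 1 these counts were 4 and 1. Of 15 complement genes 10 had a higher estimate, with a median of 0.03, and 4 were higher and 0 lower at that threshold (3 and 0 without LynAKO mouse 1). The complement recognition subunits C1qa, C1qb and C1qc stood at 0.49 ± 0.15, 0.24 ± 0.08 and 0.22 ± 0.08. C1qa without ligand was at 456, 258, 171 and 299 CPM in LynAKO, against 209, 199, 187 and 169 CPM in LynBKO. LynAKO mouse 1 was the high one and mouse 3 lay among the LynBKO values. Of 35 lysosome genes 23 had a higher estimate, with a median of 0.02, led by Gla (alpha-galactosidase) at 0.17 ± 0.05. At an unadjusted p under 0.05, 8 lysosome genes were higher and 0 lower. The means of mice did not overlap for 5 of them, all higher, as for 1.87% of all genes in that direction.

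Markers of monocytes and myeloid progenitors were lower in LynAKO by estimate, with none called. All 10 listed members were tested, 10 had a lower estimate, 6 of them at an unadjusted p under 0.05, and the median was -0.39. Of all genes 52.5% had a lower estimate, and 4.83% were lower at that threshold. Cd34 (a sialomucin of progenitors) had -0.85 ± 0.23, Chil3 (a chitinase-like protein of monocytes) -0.69 ± 0.22 and Vcan (versican, a proteoglycan of monocytes) -0.44 ± 0.16, with adjusted p values of 0.315, 0.434 and 0.487 by limma. Summed over the list the level was 138 to 288 CPM in LynAKO libraries and 231 to 389 CPM in LynBKO libraries, and Kit was under 1 CPM in all 24 libraries. In bulk RNA, fewer cells of a type and less RNA per cell cannot be told apart. LynAKO mouse 1 stood apart, with a mean log2 level of 1.75 against 2.32 to 2.39 in the other LynAKO mice and 2.46 to 2.66 in LynBKO mice. Without it the median was -0.29, with 2 members at an unadjusted p under 0.05, and without LynBKO mouse 1 it was -0.26, with 3. It was -0.39 both without LynBKO NT 4 and with NT 2 and NT 3 exchanged. Relative to WT, whose libraries both comparisons share, the median of the list was -0.04 in LynAKO and 0.32 in LynBKO. The means of mice were 2.20 ± 0.30 in LynAKO, 2.56 ± 0.11 in LynBKO, 1.99 ± 0.16 in LynKO and 2.17 ± 0.05 in WT (SD, n = 4 each).

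Neutrophil and granulocyte progenitor markers had 8 tested members of 16, of which 7 had a lower estimate in LynAKO, with a median of -0.36. The other 8 members, among them Elane, Mpo, Prtn3 and Ctsg of granule progenitors, were under 1 CPM in all 24 libraries. The list summed to 114 to 284 CPM in LynAKO and 127 to 309 CPM in LynBKO. Camp, which encodes cathelicidin, had -1.11 ± 0.43 at levels of at most 1.24 CPM, and without LynAKO mouse 1 the median of the list was -0.15. It was -0.32 without LynBKO NT 4 and -0.35 with NT 2 and NT 3 exchanged. Relative to WT the median of this list was 0.03 in LynAKO and 0.51 in LynBKO. The part of monocyte or neutrophil lineage RNA in the genes above, LynAKO mouse 1 included, was not tested.

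Most genes of mitosis were lower in LynAKO by estimate. Of 55 G2/M and mitosis genes 53 had a lower estimate, 23 of them at an unadjusted p under 0.05, where 4.83% of all genes fell below that threshold in this direction. The median was -0.24. By limma none was called with mice as titled and treatment as the only covariate, and Ccnb1 was called with LynBKO NT 2 and NT 3 exchanged. Ccnb1 led, followed by Cenpf (a kinetochore protein) at -0.58 ± 0.16, Top2a (the topoisomerase that untangles chromosomes) at -0.36 ± 0.10 and Dlgap5 (a spindle protein) at -0.62 ± 0.17. The median was -0.24 without ligand, -0.21 with LPS and -0.25 with R848. By mouse the mean log2 level of the list was 2.76, 2.63, 2.96 and 2.72 in LynAKO and 2.66, 3.15, 3.18 and 2.98 in LynBKO. LynBKO mouse 1 was as low as the LynAKO mice, and the genotypes overlapped. The median lay between -0.34 (without LynBKO mouse 1) and -0.18 (without LynAKO mouse 2) when mice were left out, and was -0.23 without LynBKO NT 4 and -0.24 with NT 2 and NT 3 exchanged. The corresponding means of mice were 3.50 ± 0.23 in LynKO and 2.61 ± 0.21 in WT, so both isoform knockouts lay between these, LynBKO at 2.99 ± 0.24 and LynAKO at 2.77 ± 0.14 (SD, n = 4 each). Relative to WT the median of the list was 0.14 in LynAKO and 0.43 in LynBKO.

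The 46 genes of G1/S and DNA replication had a median of -0.01, with 24 lower and 22 higher. Without LynAKO mouse 1 the median was -0.08 with 37 lower, without LynAKO mouse 3 it was 0.03 with 20 lower, and on sums per mouse it was 0.03 with 18 lower. The difference between this list and that of mitosis was not tested. Mcm5, a subunit of the replicative helicase, stood at -0.01 ± 0.12 with a 95% interval of -0.25 to 0.23. Ccnd1 (cyclin D1, which M-CSF induces) stood at -0.01 ± 0.18, and Mki67, the proliferation marker, at -0.23 ± 0.12 (adjusted p = 0.617). Mki67 without ligand was at 26.3, 28.9, 39.3 and 23.9 CPM in LynAKO, against 39.6, 40.6, 41.2 and 42.4 CPM in LynBKO. These groups did not overlap, but edgeR within NT gave -0.47 ± 0.15 with an adjusted p of 0.584. With R848 Mki67 was at 204, 241, 280 and 146 CPM in LynAKO, against 279, 275, 282 and 153 CPM in LynBKO, and the groups overlapped.

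**Figure D3:**
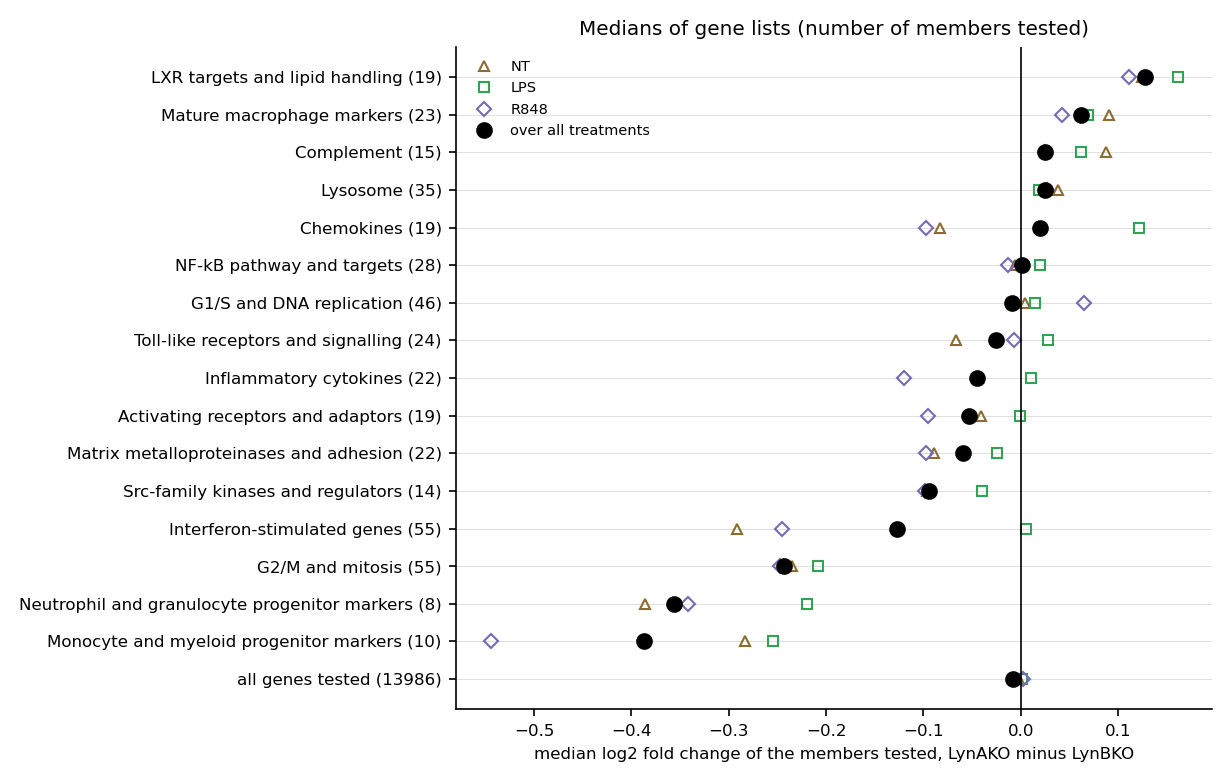
Median log2 fold change (LynAKO minus LynBKO) of the tested members of 16 gene lists and of all genes, over all treatments (black, limma) and within each treatment (open symbols, edgeR). The medians of G2/M genes and of monocyte markers lay below 0 under all treatments, and that of interferon-stimulated genes near 0 with LPS only.

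**Figure D4:**
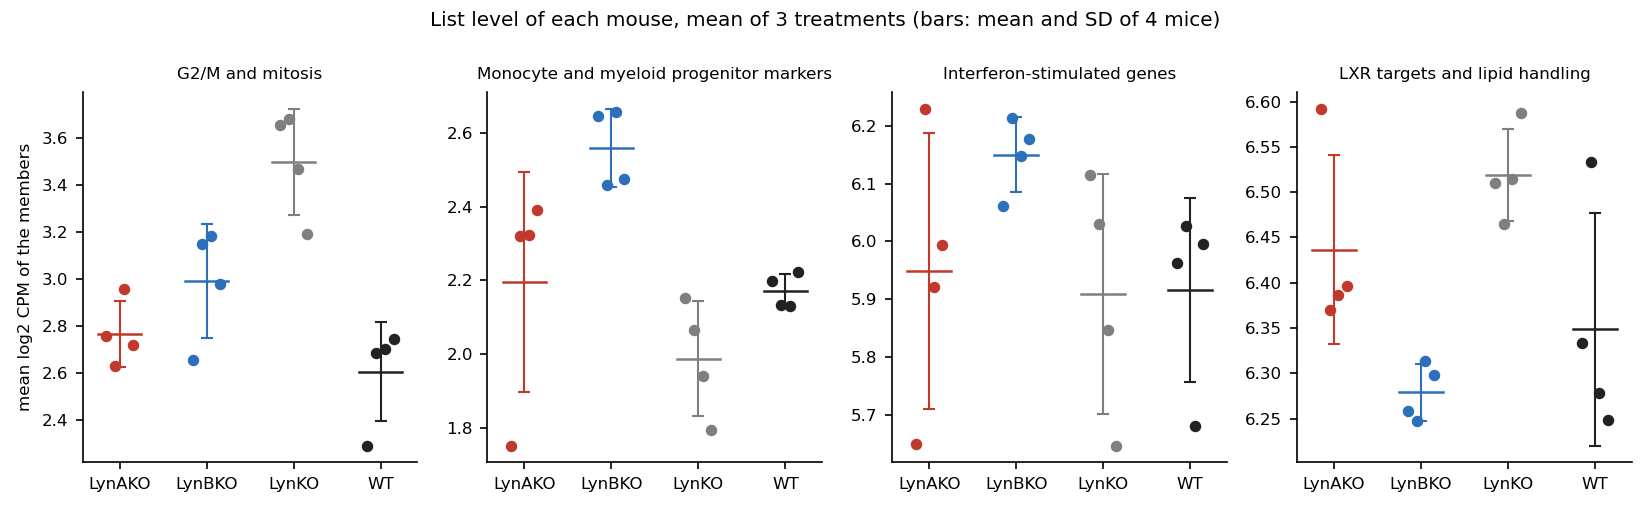
Mean log2 CPM of the members of 4 lists in each mouse (points; mean of 3 treatments), with the mean and SD of 4 mice as bars, for LynAKO, LynBKO, LynKO and WT. The genotypes overlap for G2/M and interferon-stimulated genes; the 4 LynAKO mice lie below the 4 LynBKO mice for monocyte markers and above them for LXR targets, and LynAKO mouse 1 is the farthest from LynBKO in both. The vertical axes do not start at 0.

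Interferon-stimulated genes had small lower estimates in LynAKO without ligand and with R848 but not with LPS. Of 55 members 50 were lower over all treatments, with a median of -0.13 and none called by limma (1 by DESeq2 on the sums). At an unadjusted p under 0.05, 5 (9.09%) were lower, where 4.83% of all genes were. On sums per mouse 54 were lower, 11 of them at that threshold, where 3.27% of all genes were. Without ligand 54 were lower and 19 of the 55 had an unadjusted p under 0.05 by edgeR (8.39% of all genes). With R848 54 were lower and 7 were at that threshold (3.18% of all genes), and with LPS 22 were lower and 0 were (2.52%). The median was -0.29 without ligand, -0.25 with R848 and 0.01 with LPS. Oasl1, an antiviral oligoadenylate synthetase-like protein, with R848 was at 5.87, 5.13, 4.34 and 6.19 CPM in LynAKO, against 8.49, 12.9, 6.25 and 9.94 CPM in LynBKO, with no overlap and edgeR within R848 at -0.81 ± 0.20 (adjusted p = 1.00). With LPS Oasl1 was at 450, 552, 515 and 535 CPM in LynAKO, against 615, 571, 523 and 607 CPM in LynBKO. LynAKO mouse 1 was the lowest: by mouse the mean log2 level was 5.65, 6.23, 5.92 and 5.99 in LynAKO and 6.06, 6.21, 6.15 and 6.18 in LynBKO. Without LynAKO mouse 1 the median was -0.04 with 39 members lower, and without LynAKO mouse 2 it was -0.22 with 53 lower, 27 of them at an unadjusted p under 0.05. It was -0.11 both without LynBKO NT 4 and with NT 2 and NT 3 exchanged, with 3 and 8 members at that threshold. Relative to WT the median of the list was 0.06 in LynAKO and 0.18 in LynBKO.

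The medians of inflammatory cytokines, chemokines and the NF-kB pathway differed little. Tnf, an early inflammatory cytokine, was with LPS at 2744, 2777, 2560.0 and 2061 CPM in LynAKO, against 2793, 2299, 2144 and 2347 CPM in LynBKO. With R848 Tnf was at 1843, 2533, 2418 and 3285 CPM in LynAKO, against 2607, 2366, 2214 and 3324 CPM in LynBKO. The groups overlapped, and over all treatments the 95% interval of Tnf was -0.21 to 0.20 on the log2 scale. For Il1b (interleukin 1 beta) that interval was -0.38 to 0.24, for Cxcl10 (a chemokine induced by interferon) -0.27 to 0.20, for Il6 -0.44 to 0.37 and for Il12b (the p40 subunit of interleukins 12 and 23) -0.38 to 0.43. Il12b had no count without ligand in either genotype. With LPS Il12b was at 71.8, 64.3, 37.9 and 19.2 CPM in LynAKO, against 46.3, 42.9, 35.1 and 27.0 CPM in LynBKO, and the groups overlapped.

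Medians were -0.04 for 22 inflammatory cytokines, 0.02 for 19 chemokines, 0.00 for 28 genes of the NF-kB pathway and -0.02 for 24 Toll-like receptor genes. None of these members was called by limma, and DESeq2 on the sums called 1 chemokine, Cx3cl1. At an unadjusted p under 0.05 by limma, 3 chemokines were higher and 1 lower, where 3.55% and 4.83% of all genes were. The means of mice did not overlap for 3 chemokines, 2 higher and 1 lower, as for 3.17% of all genes. On sums per mouse the medians were -0.10 with 18 of 22 lower, -0.02 with 10 of 19 lower, -0.06 with 24 of 28 lower and -0.03 with 16 of 24 lower, in the same order. Leaving out a mouse gave -0.12 (without LynBKO mouse 3) to 0.02 (without LynBKO mouse 1) for the cytokines and -0.04 (without LynAKO mouse 2) to 0.08 (without LynBKO mouse 1) for the chemokines, so neither median kept its sign. The 95% interval stayed within 1.5-fold for 15 of the cytokines, 16 of the chemokines, 27 of the NF-kB genes and all 24 Toll-like receptor genes. Among chemokines Cx3cl1 (fractalkine) had -0.34 ± 0.08 (adjusted p = 0.191 by limma) and Ccl12 0.56 ± 0.23 (adjusted p = 0.542).

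The Src-family kinases Fgr, Src and Fyn did not differ beyond their spread. Fgr stood at 0.01 ± 0.09 with a 95% interval of -0.17 to 0.18, Src at -0.03 ± 0.07 (-0.17 to 0.11) and Fyn at -0.12 ± 0.06 (-0.25 to 0.01). Of 14 tested kinases and regulators 11 had a lower estimate, with a median of -0.09, and 1 had an unadjusted p under 0.05: Pag1, the membrane adaptor that recruits the inhibitory kinase Csk. Csk itself stood at 0.03 ± 0.05. Among 19 activating receptors and adaptors Trem1 was called, while Trem2 (a lipid-sensing receptor with the same adaptor as Trem1) had 0.21 ± 0.06 and Tyrobp, that adaptor, 0.14 ± 0.06, with adjusted p values of 0.318 and 0.532. Of 22 genes of matrix and adhesion 18 had a lower estimate in LynAKO, with a median of -0.06, with Itgb7 and then Mmp8 (a collagenase, -0.32 ± 0.12) first by p among these.

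Within single treatments edgeR called no gene among those that passed the filter. In each treatment edgeR, on 16 libraries of 4 genotypes, called 0 of 13986 genes without ligand, with LPS and with R848. At an unadjusted p under 0.05 there were 1173 genes (8.39%) without ligand, 353 (2.52%) with LPS and 445 (3.18%) with R848. DESeq2 called 1, 0 and 0. With no filter on low counts edgeR called 199, 13 and 27. The libraries of the genotypes did not overlap for 496 genes (3.55%) without ligand, 276 (1.97%) with LPS and 351 (2.51%) with R848. The 3 smallest p values belonged to Pltp, Itgb7 and Fabp4 without ligand, and Pltp led again with LPS. There it was followed by E230016K23Rik, a transcript of at most 1.28 CPM, and Jmy (a regulator of actin and p53), which was at 3.19, 2.91, 3.75 and 4.01 CPM in LynAKO and 4.65, 5.21, 5.90 and 6.24 CPM in LynBKO. With R848 the smallest p values belonged to Cbfa2t3, Oasl1 and Stil (a centriole protein). Stil was at 2.09, 1.35, 1.93 and 1.75 CPM in LynAKO and 3.53, 3.52, 2.80 and 2.97 CPM in LynBKO. Their adjusted p values were 0.584 without ligand and 1.00 with LPS and R848 by edgeR, so these genes are named by rank only.

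For the response to ligand edgeR also called no gene among those that passed the filter. With the mouse as a term, edgeR called 0 genes for the difference of the LPS response (489, or 3.5%, at an unadjusted p under 0.05) and 0 for that of the R848 response (393, or 2.81%). DESeq2 called 0 for both. With no filter the counts were 42 for LPS and 17 for R848. With the filter but without LynBKO mouse 2, edgeR called 1 for LPS and 2 for R848. The smallest p for both ligands belonged to Clcf1, a cytokine of the interleukin 6 family. Its counts without ligand were 0, 1, 4 and 4 in LynAKO and 8, 16, 18 and 11 in LynBKO, while with LPS it was at 17.5, 16.8, 21.5 and 30.8 CPM in LynAKO and 17.8, 24.9, 19.6 and 23.98 CPM in LynBKO. The genotypes were thus apart in the few reads without ligand and overlapped with LPS. The adjusted p of the difference in LPS response was 0.533 by edgeR, and with so few reads without ligand no size of the rise is given.

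E2f2, a transcription factor of the cell cycle, and Cfb, complement factor B, were next for LPS. E2f2 with LPS was at 1.66, 2.77, 3.75 and 2.82 CPM in LynAKO, against 4.21, 5.42, 5.27 and 5.04 CPM in LynBKO, and its log2 change with LPS was -4.70 to -4.03 in LynAKO and -4.02 to -3.42 in LynBKO. Cfb without ligand was at 0.385, 0.450, 0.354 and 0.546 CPM in LynAKO, against 1.04, 0.914, 0.818 and 0.706 CPM in LynBKO, and overlapped with LPS. For R848 Adora2b, an adenosine receptor, had a rise of 4.69 to 4.78 log2 units in LynAKO and 4.30 to 4.49 in LynBKO. For interferon-stimulated genes the median difference of the LPS response was 0.27, with 19 of 55 members at an unadjusted p under 0.05 (3.5% of all genes), and that of the R848 response was 0.05, with 1 (2.81% of all genes). The LPS and R848 responses of a genotype share its NT libraries, LynBKO NT 2, 3 and 4 among them.

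As a single measure of the difference, the root mean square log2 distance over 13496 autosomal genes was taken between the means of mice. It averaged 0.328 between LynAKO and LynBKO mice, 0.359 among LynAKO mice and 0.290 among LynBKO mice. The mean between genotypes exceeded the mean within genotypes by 0.00287, with an exact one-sided permutation p of 0.343 over 35 splits, where 0.0286 was the smallest possible. For LynKO against WT the same excess was 0.0947 with p = 0.0286 (exact). For LynAKO against WT it was -0.00199 with p = 0.543 (exact), and for LynBKO against WT 0.0193 with p = 0.0286 (exact). The difference between these contrasts, which share WT, was not tested. Within single treatments the exact p of LynAKO against LynBKO was 0.171 without ligand, 0.714 with LPS and 0.514 with R848. With mice taken from titles, mice of 1 genotype thus lay on average about as far from each other as from mice of the other genotype. That does not show that the genotypes are alike in single genes. The means of mice join libraries by title number, which is in doubt for LynBKO libraries without ligand. No distance was taken with those libraries exchanged or left out. The distances and p values of LynBKO on means of mice, against WT included, therefore hold for the titles as given only. The comparisons within single treatments join no libraries.

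Near Lyn no gene was called. Of 18 genes tested within 5 Mb of it on chromosome 4, Lyn itself included, 1 had an unadjusted p under 0.05 (8.37% of all genes). It was Penk (proenkephalin) at 0.56 with overlapping mice. The 6 genes called lay on chromosomes 2 (Pltp), 3 (Fabp4), 11 (Atp2a3), 12 (Ltbp2), 15 (Itgb7) and 17 (Trem1). Of 28 mitochondrial genes tested 5 had an unadjusted p under 0.05, as did 8.37% of all genes, and none was called, and the mitochondrial share of counts was 1.33% to 1.79% in LynAKO libraries and 1.29% to 1.76% in LynBKO libraries. The smallest p values among them belonged to mt-Nd1, a subunit of respiratory complex I, at 0.21 ± 0.05 and mt-Cytb, cytochrome b of complex III, at 0.17 ± 0.04, with adjusted p values of 0.132 and 0.277 by limma. Their part in the calls above was not tested.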

How the data were processed

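Bulk polyA RNA was sequenced in 48 libraries. Per the submitters' processing notes, the authors' tools were STAR 2.5.2b, Trimmomatic 0.36, Subread 1.5.2 with featureCounts, and DESeq2, on build GRCm38; the sources used here give neither annotation release nor strand setting, so overlapping and antisense genes are uncertain. The authors deposited raw counts for 49315 genes, which were used, and variance-stabilised log2 values, which were not. Filtering (minimum count 10, minimum total 15) kept 13986 genes. TMM scaling, limma 3.58.1 (voom weights, treatment as covariate, mouse as block, within-mouse correlation 0.205) and edgeR 4.0.16 were run in R 4.3.3; DESeq2 1.42.0 was an alternative. P-values were adjusted by Benjamini-Hochberg at 0.05, and the tests were tested on simulated data. Libraries of 1 genotype and number were taken as 1 mouse from their titles.

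The genes named were 15 fixed genes, the 10 with the smallest p by limma (since none passed by both tests), the 3 with the smallest p for each treatment and response, and up to 3 members each way of each of 16 lists described, from 35 lists of 743 genes. Abca1, Csk, Penk, the C1q genes and mitochondrial genes beyond that rule were named after their values were seen. The distance test and the counts of cholesterol synthesis genes were also added then. Members and lists were chosen with earlier results of these data known. Some items that this rule names are not reported here.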

Additional observations from a re-analysis of the deposited data

Results flagged for a closer look

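Trem1 averaged 17.5 CPM in LynAKO mouse 1, while the other LynAKO mice lay between 26.1 and 26.6 CPM, which set this mouse apart by Dixon's test. Without this mouse the log2 difference of Trem1 was -0.43 (adjusted p = 0.254 by limma), and Trem1 was not called. With this mouse kept, the adjusted p ran from 0.00143 (limma with no filter) to 0.804 (edgeR on sums with LynBKO NT 2 and NT 3 exchanged) over the alternatives. Of 50 groups tested in this way, about 1 in 20 would be set apart by chance.

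Y-linked transcripts reached 162 CPM in LynBKO NT 4, a library labelled female, against 0 to 0.127 CPM in the other female libraries of LynAKO and LynBKO. No Y-linked gene was among the genes called.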

How the results depend on the processing

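The 6 genes called by limma over all treatments became 0 by edgeR on sums per mouse (0 also with LynBKO NT 2 and NT 3 exchanged), 13 by DESeq2 on the sums, 17 by edgeR with libraries taken as independent, 19 with no filter on low counts, 10 with sex as covariate, 3 in the fit of 48 libraries, 2 without LynBKO NT 4, and 1 to 21 when a mouse was left out. With the replicate number as a block the count was 35. Of 12 correlations of the same number across genotypes 2 exceeded 0.1, and 5 of 12 libraries correlated best with their own number. These 5 were all with LPS or R848. The correlations were -0.13 to -0.02 without ligand, where LynBKO labels are in doubt, 0.01 to 0.19 with LPS and -0.04 to 0.31 with R848. Whether a number stands for a pairing or batch shared across genotypes was not tested. Within treatments, no filter gave 199 genes without ligand, 13 with LPS and 27 with R848, and DESeq2 gave 1 without ligand. For the response differences no filter gave 42 (LPS) and 17 (R848), and leaving out a mouse gave 0 to 1 (LPS) and 0 to 2 (R848). The cause was not tested.

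Genes near 0 that were not called changed sign. Fgr was -0.043 (edgeR sums), -0.044 (DESeq2) and -0.045 (sums, exchanged). Ccnd1 was 0.087, 0.089 and 0.092 in these, 0.090 with independent libraries, 0.032 with sex, 0.042 with the replicate block, 0.011 without LynBKO NT 4 and 0.013 with the exchange as well. Mcm5 was 0.034, 0.034, 0.033, 0.011, 0.00017 and 0.0085 in the first 6 of these settings, and Cxcl10 was 0.055 with no filter. Leaving out a mouse gave -0.044 to 0.052 for Fgr, -0.28 to 0.15 for Ccnd1, -0.21 to 0.10 for Mcm5, -0.15 to 0.063 for Cxcl10, -0.057 to 0.054 for Tnf, -0.13 to 0.028 for Il1b, -0.27 to 0.11 for Il6, -0.10 to 0.17 for Il12b, -0.056 to 0.021 for Csf1r and -0.079 to 0.016 for Src. With 4 mice a genotype the sign of such small differences was not settled, also in genes of high level such as Csf1r. Small differences of low genes may have gone undetected.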
